A study of Rattus norvegicus with 252 samples.

Results

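The genes described here are 9 protein-coding genes of the mitochondrial genome: Co1, Co2 and Co3 of complex IV, Atp6 of complex V, Cytb of complex III, and Nd1, Nd2, Nd4 and Nd5 of complex I. They were taken as a fixed list of Ensembl identifiers, 9 of the 32883 genes in the count table, with the condition that each be among the most abundant. All 9 met it. By mean count Co1 (ENSRNOG00000034234) stood at rank 1, Co3 (ENSRNOG00000030700) at 2, Cytb (ENSRNOG00000031766) at 3, Atp6 (ENSRNOG00000031979) at 4, Nd2 (ENSRNOG00000031033) at 5, Co2 (ENSRNOG00000030371) at 6, Nd4 (ENSRNOG00000029707) at 7, Nd1 (ENSRNOG00000030644) at 8 and Nd5 (ENSRNOG00000029971) at 10. The files pair no identifier with a name, so the names are those given with the list. They were checked against gene length, since the ratio of a gene's count to its length-scaled value gives its relative length. Relative to Co1, the lengths were 1.18 for Nd5, 0.892 for Nd4, 0.740 for Cytb, 0.672 for Nd2, 0.618 for Nd1, 0.507 for Co3, 0.443 for Co2 and 0.441 for Atp6. This is the textbook order of the coding lengths of these genes.

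The respiratory chain sits in the inner mitochondrial membrane. Complexes I, III and IV pass electrons to oxygen and pump protons, and complex V, the ATP synthase, uses the proton gradient to make ATP. The mitochondrial genome encodes a small core of these subunits, nuclear genes encode the rest, and the 9 genes here lie on the same strand and are transcribed as long precursors that are processed into separate messages. Neurons depend on oxidative phosphorylation for firing and synaptic transmission. Energy metabolism has long been studied in Huntington disease, in which striatal projection neurons are lost first.

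The study sequenced RNA of 4 brain regions, namely cerebellum, hippocampus, cortex and striatum, in 60 Long Evans rats. Rats were wild type (WT) or heterozygous for Q130 KI, a knock-in allele with an expanded glutamine repeat that models Huntington disease, called Q130 below, and were 2, 6 or 12 months old. The 240 study libraries form 24 groups of 10 animals, each with 5 females and 5 males, and every animal gave all 4 tissues. Libraries of 2 and 6 months were made as batch 1 and those of 12 months as batch 2, which also held 12 repeat libraries, all of male striatum at 2 or 6 months. Age and batch therefore cannot be told apart between 12 months and the younger ages. Replicates were separate animals. The knock-in allele is present in every cell, and bulk tissue was measured, so fewer cells of a type and less RNA per cell cannot be told apart.

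Total counts ran from 25.3 M to 50.8 M (M, 1e6 counts) per library with a median of 34.5 M. No member had fewer than 76225 counts in any library, so counting error was small beside the spread between animals. Tissue labels were checked by correlation, because no identifier could be matched to a marker gene. In 9 libraries the median correlation with the other libraries of the labelled tissue was below 0.97, and 8 of these 9 carried the Q130 label. The libraries labelled striatum of Q130 male 1 (0.938 with striatum, 0.986 with hippocampus) and hippocampus of Q130 male 5 (0.932 with hippocampus, 0.982 with striatum) at 6 months carry the label of 1 animal. At 12 months, those labelled Q130 male 4 cortex (0.895) and Q130 male 3 striatum (0.859) also carry the label of a single animal. The others were cerebellum of Q130 males 1 and 2 at 2 months, cortex of WT male 4 and hippocampus of Q130 male 3 at 6 months, and striatum of Q130 female 2 at 12 months. These numbers are replicate numbers within a tissue and group. The same number in different tissues need not be the same animal. These libraries are kept under their labels below, and values that move without them are given both ways. Of the 12 repeat libraries, 10 went against their labels, as described with those libraries.

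The members together took the largest share of counts in the striatum. In WT rats the lowest, median and highest shares over 30 striatal libraries were 14.39, 16.69 and 21.63% of all counts, with a mean of 17.06 ± 1.66% (SD, n = 30). In the cortex they were 10.27, 11.32 and 12.79% (mean 11.28 ± 0.64%, SD, n = 30). In the hippocampus they were 9.18, 9.92 and 11.65% (mean 9.97 ± 0.62%, SD, n = 30), and in the cerebellum 6.89, 7.95 and 9.05% (mean 8.01 ± 0.52%, SD, n = 30). Every WT striatal library lay above every WT library of the other tissues, and every cerebellar library lay below every hippocampal and cortical one, whereas cortical and hippocampal libraries overlapped. Within animals the share was highest in the striatum in 30 of 30 WT and 28 of 30 Q130 rats. The full order striatum, cortex, hippocampus, cerebellum held in 29 of 30 WT and 22 of 30 Q130 rats, and in 28 of 29 WT and 20 of 24 Q130 rats that had no library standing apart. The ratio of the striatal to the cerebellar share had a median of 2.11 over WT animals and ran from 1.76 to 2.66.

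**Figure D1:**
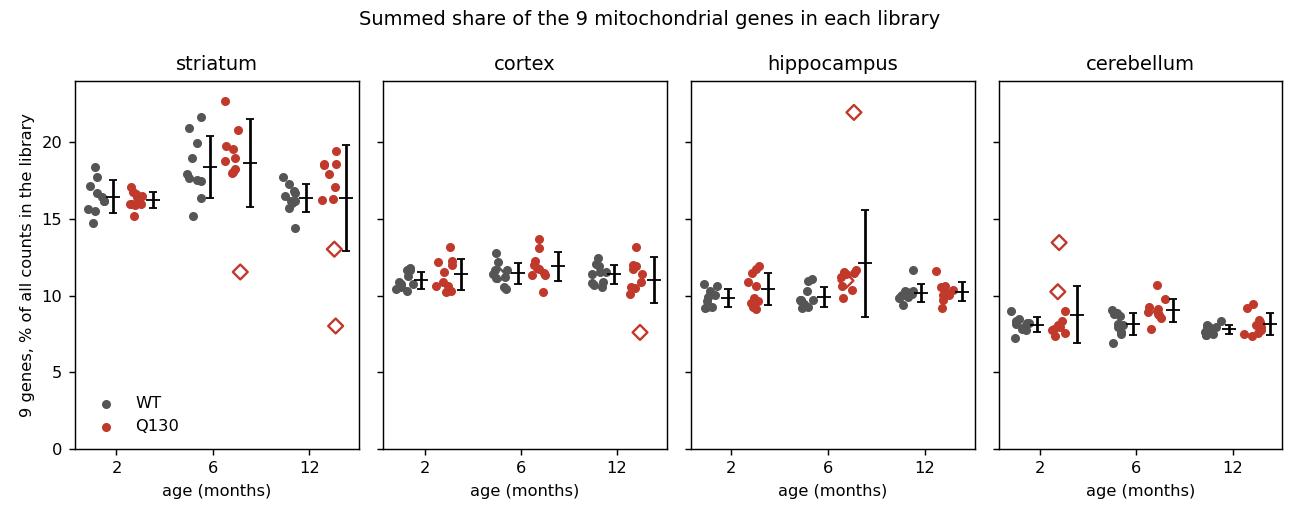
Summed share of all counts taken by the 9 genes (percent) in each study library, by tissue, age and genotype, with 10 libraries a group; dots are libraries, open diamonds are libraries that stand apart from their labelled tissue, and bars are mean and SD. Striatal groups lie highest and cerebellar groups lowest, and some of the extreme values are diamonds, such as 8.02% in striatum of Q130 male 3 at 12 months and 21.95% in hippocampus of Q130 male 5 at 6 months.

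Levels of single genes are given in TPM, in which counts are divided by gene length and scaled to the same total in each library, so that genes can be compared. Co1, the catalytic subunit of complex IV, was the most abundant. In WT striatum its lowest, median and highest TPM were 50726, 56960 and 67385 (mean 57794 ± 4039, SD, n = 30), against 31180, 44681 and 50037 in cortex, 35661, 37648 and 41636 in hippocampus and 32022, 36716 and 41260 in cerebellum. Striatal Co1 overlapped none of the other tissues, and hippocampal and cerebellar Co1 overlapped over most of their range. Co2, which takes electrons from cytochrome c, had a mean of 33901 ± 2474 TPM in WT striatum, 26157 ± 2131 in cortex, 23589 ± 1483 in hippocampus and 15760 ± 1213 in cerebellum (SD, n = 30 each). Its cerebellar libraries ran from 12842 to 17920 TPM and all lay below the hippocampal range of 21099 to 27368 TPM. Co3, the third mitochondrially encoded subunit of complex IV, showed the same separation, with 20618 ± 1137 TPM in WT cerebellum against 31229 ± 1491 in hippocampus, 32064 ± 1766 in cortex and 45018 ± 3597 in striatum (SD, n = 30 each).

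Atp6, a subunit of the proton channel of ATP synthase, was the next most abundant by median rank per length, at 46070 ± 3356 TPM in WT striatum, 32343 ± 1825 in cortex, 30649 ± 1682 in hippocampus and 23102 ± 1283 in cerebellum (SD, n = 30 each). Cytb, the mitochondrially encoded subunit of complex III, had 26831 ± 1740, 19859 ± 1592, 18338 ± 918 and 15974 ± 1273 TPM in the same order of tissues. The complex I genes were lower per length. Nd1 had 24686 ± 1851 TPM in WT striatum, 15651 ± 1011 in cortex, 15030 ± 956 in hippocampus and 12843 ± 873 in cerebellum (SD, n = 30 each). Nd2 had lowest, median and highest TPM of 23397, 26414 and 32132 in striatum, 9113, 15722 and 18428 in cortex, 14009, 15571 and 17342 in hippocampus and 9809, 11627 and 12941 in cerebellum. Cortical and hippocampal Nd2 thus overlapped almost fully, while no striatal library overlapped either.

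Nd4 had 17898 ± 1418 TPM in WT striatum, 11335 ± 1388 in cortex, 11123 ± 713 in hippocampus and 8050 ± 574 in cerebellum (SD, n = 30 each). Nd5, which encodes the longest of the 9 proteins, was the least abundant. Its lowest, median and highest TPM were 6354, 7133 and 8487 in striatum, 1662, 5419 and 6513 in cortex, 3606, 4606 and 6006 in hippocampus and 3510, 4270 and 5127 in cerebellum. Its median rank among all genes was 14, and in single libraries it ranged from 11 to 56. The lowest WT cortical values of Co1, Cytb, Nd1, Nd2, Nd4 and Nd5 all belong to 1 library, cortex of WT male 4 at 6 months, which stands apart. Without it the lowest WT cortical Nd5 was 4978 TPM and the lowest cortical Nd2 13418 TPM.

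**Figure D2:**
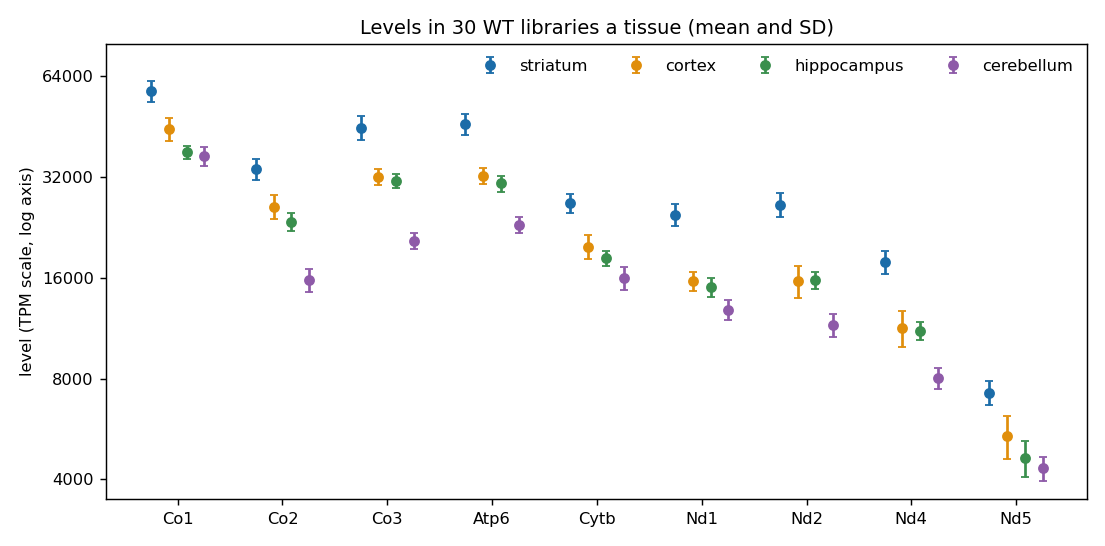
Level of each of the 9 genes in the 4 tissues of WT rats, in TPM on a log axis; points are means and bars SD over 30 libraries a tissue. The striatum is highest for every gene (57794 TPM for Co1, 7260 TPM for Nd5), and hippocampus and cerebellum lie close for Co1 (38022 and 36918 TPM) and Nd5 (4645 and 4318 TPM).

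The tissue differences were tested in the 40 WT libraries of each age with the animal as a block, by edgeR's quasi-likelihood test with Benjamini-Hochberg adjustment over all genes. All 9 genes were higher in the striatum than in each other tissue at every age. Against the cerebellum, the share of all tested genes called higher in the striatum was 42.7% at 2 months, 40% at 6 months and 40.9% at 12 months. The members' log2 differences had a median of 1.32 (0.97 to 1.58) at 2 months, 1.5 (1.10 to 1.73) at 6 months and 1.28 (0.99 to 1.53) at 12 months, whereas the median over all tested genes was 0.00, -0.01 and -0.01. The difference was 0.97 ± 0.04 for Co1 and 1.58 ± 0.04 for Nd2 at 2 months (SE; edgeR adjusted p = 6.12e-23 and 1.23e-28). Every striatal library exceeded every cerebellar one for 9 of 9 genes at each age, against 27.6, 25.9 and 24.7% of all genes at 2, 6 and 12 months.

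Against the cortex, the 9 genes were also all called higher in the striatum, with 40.7, 35.6 and 40% of all tested genes called higher at 2, 6 and 12 months. The log2 differences had medians of 0.64, 0.68 and 0.56. They were smallest for Nd5 at 2 months (0.48), Co2 at 6 months (0.51) and Co1 at 12 months (0.42), and largest for Nd2 at 2 and 6 months (0.90 and 1.08) and Nd1 at 12 months (0.76). Every striatal library exceeded every cortical one for 9, 6 and 9 of the genes at 2, 6 and 12 months, against 21.7, 13.9 and 17.3% of all genes. At 6 months Co2, Co3 and Atp6 overlapped only through cortex of WT male 4, which stands apart. The next highest cortical values were 11158, 15064 and 13067 CPM (counts scaled to library size). They lay below the lowest striatal values of 12035, 18247 and 16582 CPM. The share of all genes without that library was not computed. Of the complex I genes, Nd1, Nd2 and Nd4 lay between 0.66 and 1.08 over the ages and Nd5 between 0.48 and 0.63, and the complex IV genes lay between 0.42 and 0.68. These differences between genes were not tested. Against the hippocampus, all 9 were again called (39.1, 34.4 and 37.3% of all genes called higher at 2, 6 and 12 months). These differences were the most even across genes, at 0.72 to 0.92 at 2 months, 0.88 to 1.13 at 6 months and 0.62 to 0.87 at 12 months, and every striatal library exceeded every hippocampal one for 9 of 9 genes at each age (19.9, 16 and 15% of all genes).

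Between hippocampus and cerebellum, 9, 8 and 9 of 9 genes were called higher in the hippocampus at 2, 6 and 12 months, against 41.4, 38.2 and 40.2% of all genes. Every hippocampal library exceeded every cerebellar one for 5, 6 and 8 genes, against 26, 24.1 and 24% of all genes. At 2 months the log2 difference was 0.17 ± 0.04 for Co1, 0.63 ± 0.03 for Co2 and 0.73 ± 0.04 for Co3 (SE), so the 3 genes of complex IV did not move as a unit. Nd5 differed by 0.19 at 2 months and by 0.11 at 6 months, where it was the gene that missed the threshold (edgeR adjusted p = 0.391), and by 0.44 at 12 months. The Co1 difference rested on the scaling of libraries. When total counts alone scaled them, the median of all genes moved by -0.12 at 2 months and -0.11 at 6 months, and Co1 was no longer called at either age (0.05 and 0.04), nor was Nd5 at 2 months (0.07). Between cortex and cerebellum, 9 of 9 genes were higher in the cortex at each age (40.9, 39.3 and 40.5% of all genes), with medians of 0.67, 0.64 and 0.69. The libraries of these 2 tissues did not overlap for 9, 7 and 9 genes, against 25.2, 18.8 and 24.3% of all genes with every cortical library above. At 6 months Nd4 and Nd5 overlapped only through cortex of WT male 4, which stands apart. The next lowest cortical values were 7789 and 4803 CPM, above the highest cerebellar values of 5869 and 4097 CPM.

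Cortex and hippocampus were the closest pair. At 2, 6 and 12 months 7, 7 and 8 of 9 genes were called higher in the cortex, against 34.3, 29.7 and 32.7% of all genes, with median differences of 0.16, 0.24 and 0.13. Every cortical library exceeded every hippocampal one for 1, 1 and 0 genes, against 14.8, 7.55 and 10.3% of all genes. Nd2 (0.02 and 0.05) and Nd4 (0.08 and 0.11) missed the threshold at 2 and 6 months, and Nd1 (0.08) at 12 months. Without cortex of WT male 4 at 6 months, which stands apart, Nd4 differed by 0.19 ± 0.05 at that age (SE; edgeR adjusted p = 0.00293), and 8 of 9 genes were called (33.4% of all genes called higher). Co1 differed by 0.29, 0.35 and 0.32 at 2, 6 and 12 months and was higher in the cortex of 30 of 30 WT animals, whereas Nd2 was higher in 22 of 30. At 12 months the count fell from 8 to 5 without the animal of WT male cortex 2, and it lay between 6 and 9 without each other animal. Of all genes, 5085 were called higher without that animal, against 5229 with all animals. In the other fits that changed the count, 5019 to 5094 of all genes were called higher. In Q130 rats, 3, 0 and 1 genes were called at 2, 6 and 12 months (25, 24.2 and 24.9% of all genes called higher) and Nd2 was higher in the cortex of 14 of 30 animals. Without the Q130 libraries that stand apart, 5, 4 and 2 genes were called (30.6, 30 and 29.9% of all genes called higher), with medians of 0.13, 0.12 and 0.12. Nd2 was then higher in the cortex of 11 of 24 animals. Whether the genotypes differ in this was not tested.

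**Figure D3:**
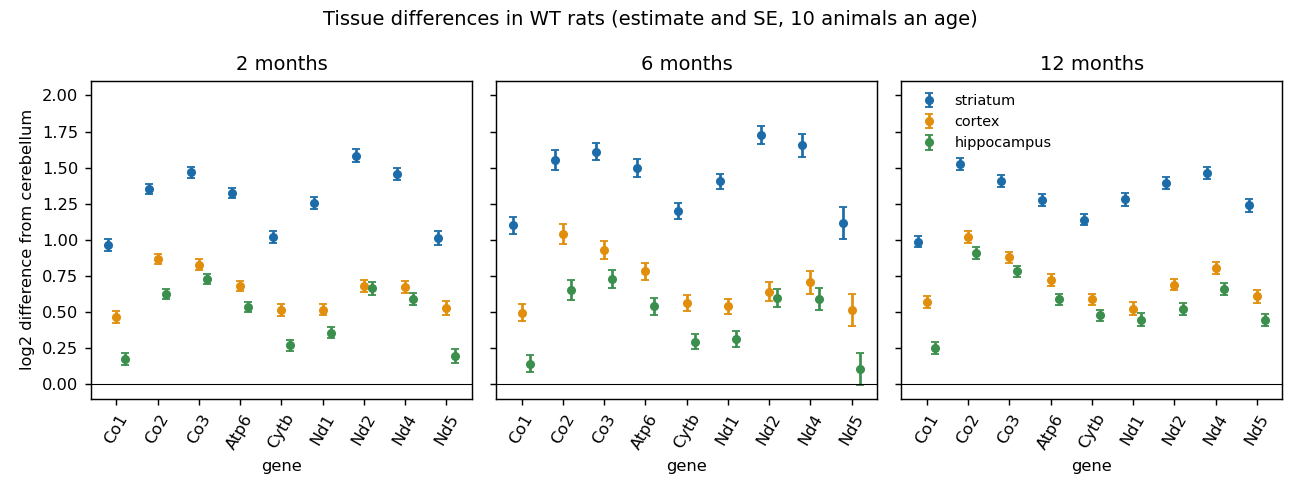
Log2 difference of each gene from the cerebellum (edgeR estimate, error bars SE) in striatum, cortex and hippocampus of WT rats at 2, 6 and 12 months, 10 animals an age. The striatal points lie between 0.97 and 1.73, and Co1 and Nd5 have the smallest hippocampal differences at 2 and 6 months (0.17 and 0.19, then 0.14 and 0.11).

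The proportions among the members also differed between tissues. The ratio of Co2 to Co1, both parts of the catalytic core of complex IV, was 0.587 ± 0.019 in WT striatum and 0.621 ± 0.033 in hippocampus (SD, n = 30 each), on the TPM scale. In cerebellum it was 0.428 ± 0.032 (SD, n = 30), with a range of 0.382 to 0.496 that lay below every cortical, striatal and hippocampal library. In cortex it was 0.576 ± 0.026 (SD, n = 29) without the library that stands apart, in which the ratio was 1.07. Nd2 to Co1 was 0.458 ± 0.015 in striatum, 0.414 ± 0.014 in hippocampus, 0.351 ± 0.026 in cortex and 0.314 ± 0.026 in cerebellum (SD, n = 30 each). Nd4 to Co1 had the same order, at 0.310, 0.292, 0.254 and 0.218. Nd5 to Co1 differed little, with means of 0.126 in striatum, 0.120 in cortex, 0.122 in hippocampus and 0.117 in cerebellum. Cytb to Co1 lay between 0.433 in cerebellum and 0.482 in hippocampus. These ratios compare genes within a library, so they do not depend on how libraries were scaled to each other, and they show unequal differences without telling which gene differed. No test was made on them.

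The library cortex of WT male 4 at 6 months shows the widest departure in proportions. Its summed share of 11.37% was that of its group, whose median was 11.37%, but Co2 (33515 TPM) exceeded Co1 (31180 TPM), and Co3 reached 35749 TPM. Nd2 was at 9113 TPM, Nd4 at 5462 TPM and Nd5 at 1662 TPM, the lowest of all 240 study libraries for each gene. Co1, Cytb (14294 TPM) and Nd1 (13377 TPM) were the lowest of its group in TPM. Co2, Co3 and Atp6, the shortest of the 9 genes, were the highest of the group in TPM, and the longer genes were the lowest. On CPM (counts scaled to library size), Co2, Co3 and Atp6 lay far above and Nd4 and Nd5 far below the rest of the group. The cause was not tested.

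The comparison of 6 with 2 months lies within batch 1. In the striatum all 9 genes had higher estimates at 6 months in both genotypes. In Q130 rats the summed share had lowest, median and highest values of 15.19, 16.22 and 17.06% at 2 months and 11.54, 18.88 and 22.72% at 6 months. Apart from striatum of Q130 male 1 (11.54%), which stands apart, the libraries of 6 months started at 18.01% and so lay above every library of 2 months. In WT rats they were 14.72, 16.32 and 18.40% at 2 months and 15.19, 17.79 and 21.63% at 6 months, and the ages overlapped. Co1 in Q130 striatum went from 52888, 56055 and 57158 TPM to 42510, 62749 and 72014 TPM, and Nd5 from 5936, 6528 and 6976 to 4890, 7638 and 8082 TPM.

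In Q130 striatum 8 of 9 genes rose from 2 to 6 months, against 8.27% of all genes called higher (edgeR, adjusted p under 0.05). The log2 differences ran from 0.21 to 0.29 with a median of 0.24, against a median of 0.01 over all genes. Nd5 rose by 0.26 ± 0.08 (SE; edgeR adjusted p = 0.0214), Nd4 by 0.29 ± 0.09 (adjusted p = 0.0227) and Cytb by 0.24 ± 0.08 (adjusted p = 0.0264). Co1 rose by 0.24 ± 0.08 (SE; adjusted p = 0.0427), and Co3, with 0.21 ± 0.08, missed the threshold (adjusted p = 0.0745). In WT striatum 0 of 9 were called, with estimates of 0.11 to 0.23 and 7 of 9 at an unadjusted p under 0.05, against 5.38% of all genes called higher and 22.7% at that unadjusted p. DESeq2 called 1 gene there and limma-voom 0, and the share of all genes in those fits is not given here. The smallest WT adjusted p was that of Co2 (0.21 ± 0.08, SE; edgeR adjusted p = 0.0634).

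The call in Q130 striatum was near its threshold. It held for 9 of 9 genes without striatum of Q130 male 1 at 6 months (median 0.31, range 0.27 to 0.36; 11.7% of all genes called higher), and the same omission gave 6 of 9 in WT (median 0.19; 7.38% of all genes called higher). Both genotypes share 1 estimate of the spread in this fit. The call was lost for all 9 in each of 4 fits that left out the libraries numbered 2, 3, 4 or 5 (8 of 40 libraries each). Of all genes, 1033, 715, 668 and 770 were then called higher, against 1319 with all libraries. Without those numbered 1, all 9 members were called, and 1670 of all genes were called higher. The age difference was not shown to differ between genotypes: the interaction gave 0 of 9 genes, with a median of 0.06 and 0 of 9 at an unadjusted p under 0.05 (0.00627% of all genes called). Without striatum of Q130 male 1 at 6 months the interaction had a median of 0.13, with 0 called and 2 of 9 at that unadjusted p (13.8% of all genes).

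In the other tissues no member was called between 6 and 2 months in either genotype. The share of all genes called was 7.72% in WT and 5.95% in Q130 cortex, 4.21 and 4.07% in hippocampus and 9.41 and 13.3% in cerebellum. At an unadjusted p under 0.05, 1 member passed in WT cortex (23.2% of all genes), 8 in Q130 hippocampus (18.1%), 1 in Q130 cerebellum (27.4%) and 0 in the others, and neither DESeq2 nor limma-voom called any. The median difference was 0.25 in Q130 hippocampus, and 0.08 without the 2 libraries of that group that stand apart, with 0 called. In Q130 cerebellum it was 0.06, and without males 1 and 2 at 2 months it was 0.20 with 8 of 9 called (8.01% of all genes called higher), against 0.01 and 0 called in WT cerebellum. Those 2 libraries had summed shares of 13.46 and 10.25%, above the 7.33 to 8.98% of the other 8 in their group. The corresponding interaction of genotype and age gave 0 called and 8 of 9 at an unadjusted p under 0.05 without them (17% of all genes), and 0 called and 0 of 9 with them.

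No member was called between Q130 and WT rats in any of the 12 comparisons of tissue and age. The share of all genes called was 2.54% in striatum at 2 months and 0% there at 6 and 12 months. It was 0.00645% in cortex at 2 months, 0% there at the later ages, 0% in hippocampus at all 3 ages, and 0%, 0.287% and 1.57% in cerebellum at 2, 6 and 12 months. At an unadjusted p under 0.05 the members numbered 2 in hippocampus at 2 months (6.14% of all genes), 9 in hippocampus at 6 months (3.35%), 8 in cerebellum at 6 months (13.9%) and 0 elsewhere. Where none passed, the share of all genes at that p ran from 1.59% in cerebellum to 19.6% in striatum, both at 2 months. The members vary together within groups (median correlation 0.908, described below). Counts of members at this p, here and in the other comparisons, are therefore not counts of separate results. In the striatum the median log2 difference (Q130 minus WT) was -0.01, 0.04 and 0.02 at 2, 6 and 12 months. The largest estimate of any member there was 0.09, for Nd5 at 6 months. Without striatum of Q130 male 1 at 6 months, the median of that age was 0.11 and Nd5 differed by 0.16 ± 0.07 (SE; edgeR adjusted p = 0.860). Nd5 was then the 1 member at an unadjusted p under 0.05, against 5.6% of all genes. DESeq2 called 2 members in cerebellum at 6 months and none in the other 11 comparisons, and limma-voom called none in the 12. The share of all genes called by DESeq2 is not given here, so the 2 members cannot be told from a change over all genes.

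Striatal shares of the genotypes overlapped at every age. At 2 months they ran from 14.72 to 18.40% in WT and from 15.19 to 17.06% in Q130 rats. At 12 months they ran from 14.39 to 17.75% in WT and from 8.02 to 19.46% in Q130 rats, with medians of 16.35 and 17.52%. Without the 2 Q130 libraries that stand apart at 12 months, the Q130 share was 17.84 ± 1.18% (SD, n = 8) against 16.36 ± 0.92% in WT (SD, n = 10), and the median log2 difference was 0.15 with 0 of 9 called. At an unadjusted p under 0.05 all 9 members then passed, against 13.1% of all genes, with estimates from 0.13 to 0.18 (Nd5). With them the Q130 mean was 16.37%, next to the WT mean of 16.36%.

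The lowest adjusted p of a member for genotype was in the cerebellum at 6 months, where all 9 estimates were higher in Q130 rats and no library of that age stands apart. Nd2 had lowest, median and highest levels of 9809, 11395 and 12767 TPM in WT and 11285, 13193 and 14138 TPM in Q130 rats, so that the groups overlapped with most Q130 libraries in the upper range. Its log2 difference was 0.23 ± 0.06 (SE; edgeR adjusted p = 0.0683). Nd5 differed by 0.19 ± 0.06 (adjusted p = 0.128) and Co1, at 37971 ± 2785 TPM in WT and 41042 ± 2655 TPM in Q130 rats (SD, n = 10 each), by 0.16 ± 0.06 (adjusted p = 0.187). Co2 had the smallest estimate (0.10 ± 0.06, adjusted p = 0.439). The median was 0.17, against 0.00 over all genes, of which 13.9% had an unadjusted p under 0.05. A fit with the replicate number as a block called 1 member, but these numbers do not pair animals. The share of all genes called in that fit is not given here. Leaving out cerebellum of WT male 5 gave 5 called members, with Nd2 at 0.26 ± 0.06 (SE; edgeR adjusted p = 0.0205). The share of all genes called was then 3.07%, against 0.287% with all libraries. This was the only omission of a single library that gave a called member for genotype in any tissue or age, and the other 239 gave 0. At 12 months the cerebellar median was 0.07, with 0 at an unadjusted p under 0.05 (19.1% of all genes).

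In the hippocampus at 6 months the estimates were larger (0.30 to 0.41, median 0.33) but the spread was wider, and the edgeR adjusted p was 0.989 for every member. WT shares ran from 9.20 to 11.07% with a median of 9.69%. Q130 shares had a median of 11.29% and reached 21.95% in hippocampus of male 5, whose correlation was higher with striatum. Without that library and male 3, Q130 shares ran from 9.86 to 11.67% and the median difference was 0.17, still with 9 of 9 at an unadjusted p under 0.05 (4.4% of all genes) and 0 called. Only 3.35% of all genes had an unadjusted p under 0.05 in this comparison with all libraries. In the cortex the medians were 0.07, 0.06 and -0.04 at 2, 6 and 12 months. Without cortex of Q130 male 4, which stands apart, the 12-month median was 0.00, and 5 of 9 estimates were higher in Q130 rats in place of 0 of 9. In the cerebellum at 2 months the median was 0.13 with 9 of 9 estimates higher in Q130 rats, and -0.02 with 1 of 9 higher without Q130 males 1 and 2.

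**Figure D4:**
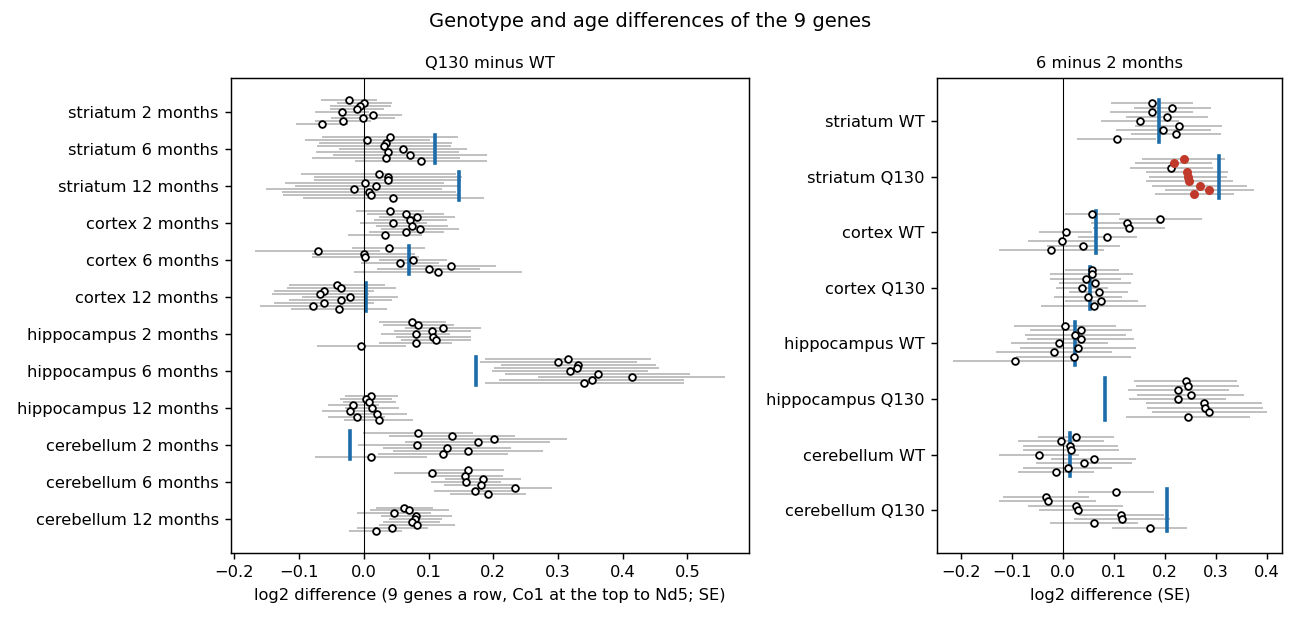
Log2 differences of the 9 genes between Q130 and WT rats in each tissue and age, and between 6 and 2 months in each tissue and genotype (edgeR estimates, error bars SE; red points have an adjusted p under 0.05, blue bars are the median without the libraries that stand apart). Red points occur in Q130 striatum between 6 and 2 months, where 8 of 9 were called, and in none of the 12 genotype comparisons.

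Further contrasts gave no called member. The genotype difference was not shown to change from 2 to 12 months (0 of 9 in each tissue; 1.69% of all genes called in striatum, 0% in cortex and hippocampus and 0.0063% in cerebellum) or from 2 to 6 months in the other tissues (0% of all genes called). Without the libraries that stand apart these also gave 0 called. At an unadjusted p under 0.05, 4 members then passed in striatum from 2 to 12 months (23.6% of all genes) and 1 in hippocampus from 2 to 6 months (9.69%). Nor was it shown to differ between striatum and another tissue at any age (0 of 9 in 9 contrasts, where 0 to 0.195% of all genes were called). At an unadjusted p under 0.05, 4 members passed in 1 of these, striatum against hippocampus at 6 months (4.72% of all genes), and 0 in the others. Without the libraries that stand apart none passed there, and at 12 months 5 passed against cortex (10.5% of all genes), 2 against hippocampus (7.35%) and 1 against cerebellum (14%). Between males and females 0 of 9 were called in each of 12 comparisons, where the share of all genes called was 0.155, 0.135 and 0.0389% in striatum, 0.142, 0.155 and 0.072% in cortex, 0.116, 0.0776 and 0.392% in hippocampus and 0.111, 0.34 and 0.422% in cerebellum at 2, 6 and 12 months. By the unadjusted p, 4 members were lower in males in the hippocampus at 2 months (4.52% of all genes), with estimates of -0.14 to -0.07 over the 9 genes. One member, Co2, passed in striatum at 2 months (0.09; 12.4% of all genes) and in hippocampus at 12 months (0.10; 10.6%), higher in males in both. Without striatum of Q130 male 1, 1 member passed in striatum at 6 months (12.9% of all genes).

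The members moved together from animal to animal. After the mean of each tissue, age and genotype was removed, the correlation of log2 CPM (counts scaled to library size) between pairs of members had a median of 0.908 over 36 pairs and 240 libraries, and 0.878 over the 231 libraries that do not stand apart. Libraries share their depth and scaling, so these are descriptions. The closest pair was Co3 and Atp6 (0.973), which adjoin in the mitochondrial genome, and the least close was Co2 and Nd5 (0.510). Without the libraries that stand apart the closest pair was Atp6 and Nd4 (0.953). Co3 and Atp6 then had 0.943, and Co2 and Nd5 were still the least close (0.537). Among 10086 other genes with at least 10 CPM on average, 5 correlated with the members' mean above 0.8. The first 2 were ENSRNOG00000033615 (0.881) and ENSRNOG00000029042 (0.880), which the files do not pair with names. Without the libraries that stand apart these gave 0.921 and 0.841, and they were then the 2 genes above 0.8.

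The 12 repeat libraries were deposited to follow batch effects, and they were examined before use. Over 43 genes whose level differs strongly between animals and is shared by an animal's tissues, all 60 striatal study libraries were most alike the other tissues of their own animal (median correlation 0.955). Of the repeat libraries 2 matched their labelled animal, the repeats labelled WT 2-month males 2 and 3. The other 10 were more alike another animal (0.843 to 0.968) than the labelled one (-0.38 to 0.78). The 12 most alike animals were 12 different rats, all among those with a first library, and 6 of them carry the other genotype label. The summed member share shows the same pattern, and the members were not among the 43 genes. The repeat labelled Q130 6-month male 1 had 21.96% against 18.78% in the first library of its label and 21.63% in the most alike animal. The repeat labelled WT 6-month male 3 had 15.25% against 21.63% and 15.19%. Over the 12, the absolute difference had a median of 1.29 percentage points and a maximum of 6.38 by label, and a median of 0.495 and a maximum of 1.82 by most alike animal.

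**Figure D5:**
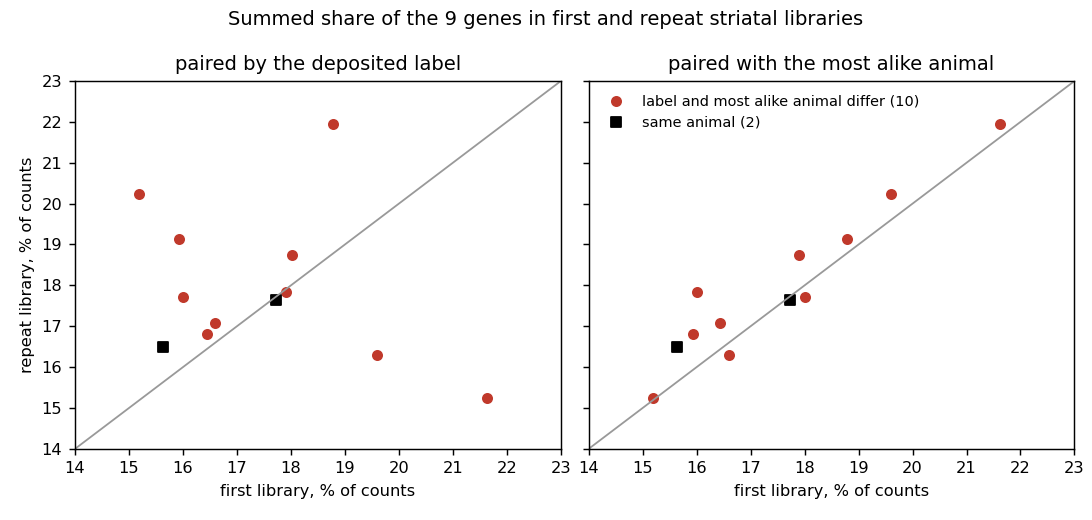
Summed share of counts of the 9 genes (percent) in the 12 repeat striatal libraries against the first libraries, paired by label (left) and by most alike animal (right); the line marks equality. Paired by label the points lie up to 6.38 percentage points from the line, and paired by most alike animal up to 1.82.

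Between batches, 0 of 9 genes were called in these libraries with labelled animals as a block (4.1% of all genes called), with a median log2 difference of 0.06 (batch 2 minus batch 1) and 0 at an unadjusted p under 0.05. Without any animal label the count was also 0 and the median 0.06. With only the 2 repeats that match their labels, 4 libraries in all, 3 genes were called (4.67% of all genes). Paired by most alike animal, the share was higher in batch 2 in 9 of 12, by a mean of 0.478 ± 0.603 percentage points (SD, n = 12). Within batch 2, striatal libraries of males at 12 months were compared with the repeats of younger males: 0 of 9 genes were called (19.4% of all genes called), with a median of -0.16 and 0 at an unadjusted p under 0.05. The median was -0.16 without the genotype label, -0.07 without the libraries that stand apart and -0.05 with only the repeats that match their labels, with 0 called each time. Without the libraries that stand apart, 1 member was at an unadjusted p under 0.05 (44.5% of all genes).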

How the data were processed

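RNA sequencing libraries of 4 brain tissues were analysed. Per the labels' protocols, samples were frozen, a Qiagen kit gave total RNA, its integrity was checked by Bioanalyzer, and enriched subfractions went into Illumina libraries. Which aligner and counter were run, and on which build, is not given in the sources used here. Values in the main table are expected counts (estimated counts) per gene as the authors deposited them, and they were rounded to whole numbers here. The authors also deposited a gene table whose name says FPKM but whose columns each have the same total, that of TPM, so its values were used as TPM. Tables of transcripts were not used.

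Columns were matched to samples by the identifiers in the labels. Names with dots were taken as the repeat libraries, an inference checked on 200 genes (the dotted column was higher in 12 of 12 pairs on a contrast of batch and age). These pairs follow the deposited labels, which 10 of the repeats go against. Without pairing, the scores overlapped, from -0.64 to 0.02 in the first columns and from -0.11 to 0.65 in the dotted ones. Among pairs of libraries of a group (492), 0 were identical, and the median squared difference was at least 2.80 times the counting variance. Libraries of different groups, such as a repeat and a first library, were not compared in this way. Each library was counted as its own sample. Replicate numbers do not pair animals: same-numbered animals of the 2 genotypes had a median correlation of 0.03 in their deviations, and 43 of 120 pairs exceeded 0.1.

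Counts were tested with edgeR 4.0.16 in R 4.3.3 (filterByExpr, TMM, robust quasi-likelihood F test, Benjamini-Hochberg adjustment over all genes, called at an adjusted p under 0.05), with sex or animal as covariate. The test was checked on simulated counts for a genotype comparison in striatum at 2 months only, with independent genes and 1 fixed spread. The fits of tissue, age and interactions were not simulated. DESeq2 1.42.0, limma 3.58.1 (limma-voom on counts, and log2 TPM with a pseudocount of 1), other scalings, filters, the replicate block and omitted libraries were alternatives. A library stood apart when its median correlation of log2 CPM (prior count 2) with its tissue was below 0.97.

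The members and lists were chosen with earlier results of these data known. All 9 members are named. Lists of nuclear pathway genes and cell type markers, written as symbols, were not tested, since 0 of 32883 identifiers matched the reference names. The identity of repeat libraries was examined after the data had been seen, over genes with a mean correlation above 0.8 between the other tissues of an animal. All libraries kept their deposited labels, and no columns were left unused.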

Additional observations from a re-analysis of the deposited data

Results flagged for a closer look

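In groups of 10 libraries, the summed share of the 9 genes had a highest or lowest value far from the next one in 4 of 24 groups, by a rule that chance meets in about 1 of 20 groups. Striatum of Q130 male 1 at 6 months was low at 11.54%, with the next library at 18.01%, and hippocampus of Q130 male 5 at 6 months was high at 21.95%, with the next at 11.67%. These libraries carry the label of 1 animal, and each correlated more with the other's tissue than with its own. Cerebellum of Q130 male 1 at 2 months was high at 13.46%, with the next at 10.25%. Hippocampus of WT male 5 at 12 months was high at 11.65%, with the next at 10.31%, and does not stand apart from its tissue. On CPM of single members the same rule picked 39 values in 11 groups, and 11 libraries in all, including cortex of WT male 4 at 6 months for Co2, Co3, Atp6, Nd4 and Nd5.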

How the results depend on the processing

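The tissue differences changed direction only between cortex and hippocampus. Uncalled Nd2 did so with total counts (2 and 6 months), without each of 2 animals (2 months) and with Q130 in place of WT libraries (2 and 6 months; at 6 months also without those that stand apart), and uncalled Nd4 with Q130 libraries at 6 months. With Q130 libraries, this pair gave 3, 0 and 1 called genes at 2, 6 and 12 months, or 4 and 2 at 6 and 12 months without those that stand apart (chosen after the data were seen), and with all of them at 6 months Co3 (-0.12), Atp6 (-0.073) and Nd1 (-0.068) reversed; the cause was not tested. Leaving out each animal gave 5 to 9 called genes for this pair at 12 months. Where the count changed, 5019 to 5094 of all genes were called higher, against 5229 with all animals. Scaling by total counts moved the median of all genes by up to -0.19 (striatum against cerebellum, 6 months), and the members moved with it.

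The ratio of the summed level to that of the cerebellum depended on the unit. In the striatum it was 1.87, 2.00 and 1.90 at 2, 6 and 12 months on TPM, 2.31, 2.60 and 2.33 on CPM with TMM library sizes, and 2.03, 2.27 and 2.1 on CPM of total counts. In the cortex it was 1.35, 1.35 and 1.39 on TPM and 1.52, 1.58 and 1.61 with TMM. On total counts the cortical ratio was 1.36, 1.41 and 1.46. In the hippocampus it was 1.26, 1.23 and 1.31 on TPM and 1.32, 1.31 and 1.42 with TMM. On total counts the hippocampal ratio was 1.22, 1.22 and 1.31.

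For 6 against 2 months in Q130 striatum, the 8 called genes became 0 in a fit over the 60 libraries of the tissue, 3 with limma-voom, 4 without a filter, 5 with total counts, 4 with limma on log2 TPM and 4 with the replicate block, and 0 to 9 without each replicate number. The block uses numbers that do not pair animals. Without each replicate number, 668 to 1670 of all genes were called higher, against 1319 in the main fit. For the other fits the share of all genes called is not given here, so a change in the members cannot be told from a change over all genes. In WT striatum 0 became 1 with DESeq2, 6 without the library that stands apart and 0 to 1 without each replicate number. The replicate fit with 1 called there had 878 of all genes called higher, against 858 in the main fit. For DESeq2 the share of all genes is not given here. In Q130 cerebellum 0 became 8 without the libraries that stand apart and 0 to 2 without each replicate number. The fit with 2 called there had 594 of all genes called higher, against 919 in the main fit. The cause was not tested.

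For genotype in cerebellum at 6 months, 0 became 2 with DESeq2, 1 with the replicate block (whose numbers do not pair animals), and 0 to 5 without each library. Only the omission of WT male 5 gave a count above 0. For DESeq2 and the block the share of all genes called is not given here. Their counts therefore cannot be told from a change over all genes. The block changed no other count of called genes for genotype. For batch, 0 became 3 with only the 2 matching repeats, and the main fit used animal labels that most repeats go against. Depth limits no value here, since every member had at least 76225 counts per library. Spread between animals and the libraries that stand apart limit the genotype and age comparisons.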

Other observations

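The library with the lowest cortical share was cortex of Q130 male 4 at 12 months (7.59%), and the lowest striatal share was striatum of Q130 male 3 at 12 months (8.02%). Both labels belong to the same animal, and both libraries stand apart. The highest striatal share was in striatum of Q130 male 5 at 6 months (22.72%), with 72014 TPM of Co1 and 34043 TPM of Nd2, and the highest cortical share was in cortex of Q130 female 3 at 6 months (13.72%). Neither of these stands apart. The lowest hippocampal share was 9.15% in hippocampus of Q130 female 4 at 2 months, and the lowest cerebellar share was 6.89% in cerebellum of WT male 3 at 6 months.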
